A study of Mus musculus with 6 samples.

Results

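Genes that mark the endothelial cells and pericytes of brain blood vessels were followed in RNA from sorted microglia. They were taken from the deposited count table by gene symbol: Cldn5, Ly6c1, Pecam1, Flt1, Cdh5, Kdr and Slco1a4 for endothelial cells, and Vtn, Rgs5 and Pdgfrb for pericytes. These are 10 of the 24956 genes of the table, and all 10 passed the filter on low counts that left 14520 genes for testing. The 6 libraries are bulk RNA-seq of microglia obtained by fluorescence-activated sorting from 3XTg-AD mice, an Alzheimer's disease model that carries mutated human APP and MAPT transgenes under a neuronal promoter. Both groups were of this strain and 7 months old, and both received 25 µg of antibody every 4 days for 4 weeks. In 3 libraries the antibody was an isotype control, and in 3 it was anti-NK1.1, which depletes natural killer (NK) cells. No mice without the transgenes and no mice without antibody were analysed here, nothing used here states the sort markers, and whether each library is 1 animal or pooled animals is not in the labels. The p-values therefore measure the spread between these libraries, which may be in part technical.

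The endothelial cells of brain capillaries are joined by tight junctions and carry a dedicated set of transporters, which together make the blood–brain barrier. Vascular endothelial growth factor (VEGF) acts on these cells through the receptors encoded by Kdr and Flt1. Pericytes sit on the outer side of the capillary inside its basement membrane, and are recruited and kept there by PDGF-B from the endothelium, which binds the receptor encoded by Pdgfrb. Microglia contact the same capillaries, but these genes are used as markers of the vessel wall and not of microglia.

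Of the 10 genes, Ly6c1 has a close relative that matters for counting. Ly6c2, its neighbour on chromosome 15 and a gene of monocytes, has a coding sequence of the same 393 bases, with 9 differences and 97.7% identity, and an identical run of up to 188 bases. The start of both coding sequences (bases 1 to 75, one read length, from the GENCODE transcripts of GRCm38) is shown because it holds 6 of the 9 differences, which are in capitals.
Ly6c1: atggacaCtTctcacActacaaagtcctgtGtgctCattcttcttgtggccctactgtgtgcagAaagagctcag
Ly6c2: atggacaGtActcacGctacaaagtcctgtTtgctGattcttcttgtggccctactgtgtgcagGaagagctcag
Of the 770 stretches of 75 bases in the Ly6c1 transcript, 179 (23.2%) also occur in another gene, 164 of them in Ly6c2. For Slco1a4 this held for 66 of 3749 stretches (1.76%), 65 of them in Slco1a5, and for the other 8 genes it held for none. Nothing used here states how reads that fit both genes were counted, so the values of Ly6c1 are uncertain to that extent.

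Promoter sequences, from 250 bases before to 50 bases after the transcription start, were found for 7 of the 10 genes in the RefSeq table of GRCm38.p6. They were searched on both strands for AGGAAG, a core of sites of the ETS family of endothelial transcription factors, for the CCAAT box and for the TATA box TATAAA. The promoters of the 4 genes with the largest positive log2 changes are shown 5′ to 3′ on the gene's strand, with matches in capitals. They lie at chr11:78498870-78499169 on the plus strand (Vtn), chr1:169655251-169655550 on the plus strand (Rgs5), chr16:18776597-18776896 on the plus strand (Cldn5) and chr15:75048788-75049087 on the minus strand (Ly6c1).
Vtn: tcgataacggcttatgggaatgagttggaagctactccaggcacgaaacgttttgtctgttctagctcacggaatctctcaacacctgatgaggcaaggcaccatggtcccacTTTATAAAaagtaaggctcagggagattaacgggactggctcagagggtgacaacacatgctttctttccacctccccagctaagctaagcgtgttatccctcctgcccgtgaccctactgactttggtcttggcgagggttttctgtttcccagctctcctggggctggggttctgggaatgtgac
Rgs5: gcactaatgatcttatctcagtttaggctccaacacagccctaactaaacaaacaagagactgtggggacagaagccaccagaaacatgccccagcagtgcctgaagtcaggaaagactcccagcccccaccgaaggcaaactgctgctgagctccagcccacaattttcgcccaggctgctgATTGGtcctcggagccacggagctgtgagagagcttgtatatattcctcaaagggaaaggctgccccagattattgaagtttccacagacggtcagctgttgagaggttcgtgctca
Cldn5: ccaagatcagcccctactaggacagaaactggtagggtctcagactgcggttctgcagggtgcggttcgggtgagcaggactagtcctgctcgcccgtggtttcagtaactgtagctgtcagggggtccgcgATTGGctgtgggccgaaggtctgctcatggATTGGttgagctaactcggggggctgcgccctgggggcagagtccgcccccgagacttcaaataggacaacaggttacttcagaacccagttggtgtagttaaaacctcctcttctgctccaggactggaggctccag
Ly6c1: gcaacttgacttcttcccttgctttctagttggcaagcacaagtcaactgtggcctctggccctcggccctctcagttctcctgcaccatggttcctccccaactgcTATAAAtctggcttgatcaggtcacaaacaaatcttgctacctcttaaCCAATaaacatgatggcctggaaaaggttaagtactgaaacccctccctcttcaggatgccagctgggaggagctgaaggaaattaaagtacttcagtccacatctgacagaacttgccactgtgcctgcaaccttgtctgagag
No searched motif was in all 4. Vtn held 1 stretch that reads TATAAA on both strands, Rgs5 held 1 CCAAT box and Cldn5 held 2, all read on the opposite strand, and Ly6c1 held 1 CCAAT box and 1 TATAAA. Over the 7 promoters searched, CCAAT was in 4, TATAAA in 3 and AGGAAG in 2 (Flt1 and Slco1a4). Of 27025 promoters of the same length, CCAAT was in 37.9%, TATAAA in 14.2% and AGGAAG in 35.1%. A match is a match of letters in this window and no measure of binding.

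Gene counts totalled 31.9 to 36.1 M per isotype library and 26.9 to 31.4 M per anti-NK1.1 library. Values are given as CPM, gene counts scaled to a common library size by the TMM method (a trimmed mean of log ratios), and 3 counts correspond to 0.0784 to 0.12 CPM. Changes are anti-NK1.1 against isotype on the log2 scale. The adjusted p is the Benjamini-Hochberg value of edgeR's two-sided quasi-likelihood test over all tested genes. The standard error (SE) was derived from that test, as the absolute log2 change divided by the square root of the F statistic. Of the microglial markers, P2ry12 was at 4557 to 5058 CPM for isotype and 2683 to 4384 CPM for anti-NK1.1, and Tmem119 at 1649 to 2771 CPM and 2732 to 3473 CPM. Neutrophil genes were abundant, at 68740 to 96358 CPM and 30603 to 134717 CPM summed over 8 genes. Libraries also differed by transcript length: across genes, the rank correlation of a library's deviation with length was 0.334 in isotype 3 and 0.256 in anti-NK1.1 2, against -0.315 in anti-NK1.1 3 and -0.152 in anti-NK1.1 1. Changes are therefore also given after a correction for length and GC content where it moves a value.

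After TMM scaling, the 10 genes together made 0.00743% to 0.023% of a library. Their summed level was clearly above that of isotype in anti-NK1.1 1 and 2 but barely so in anti-NK1.1 3. That last margin, over isotype 3, rests on the TMM factors, 1.07 for isotype 3 and 0.863 for anti-NK1.1 3. Summed over the 10 genes, the level was 74.3, 83.2 and 102 CPM for isotype 1, 2 and 3, and 229.9, 178 and 105 CPM for anti-NK1.1 1, 2 and 3. Vtn, Ly6c1 and Rgs5 were higher in all anti-NK1.1 libraries than in any isotype library, Pdgfrb was lower in all of them, and the other 6 genes overlapped. Of all tested genes, 7.73% were higher and 7.59% lower without overlap. None of the 10 passed an adjusted p of 0.05 in edgeR's quasi-likelihood test, where 0% of all tested genes passed. In bulk RNA, more vessel cells or fragments in a sort and more RNA per cell cannot be told apart.

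**Figure D1:**
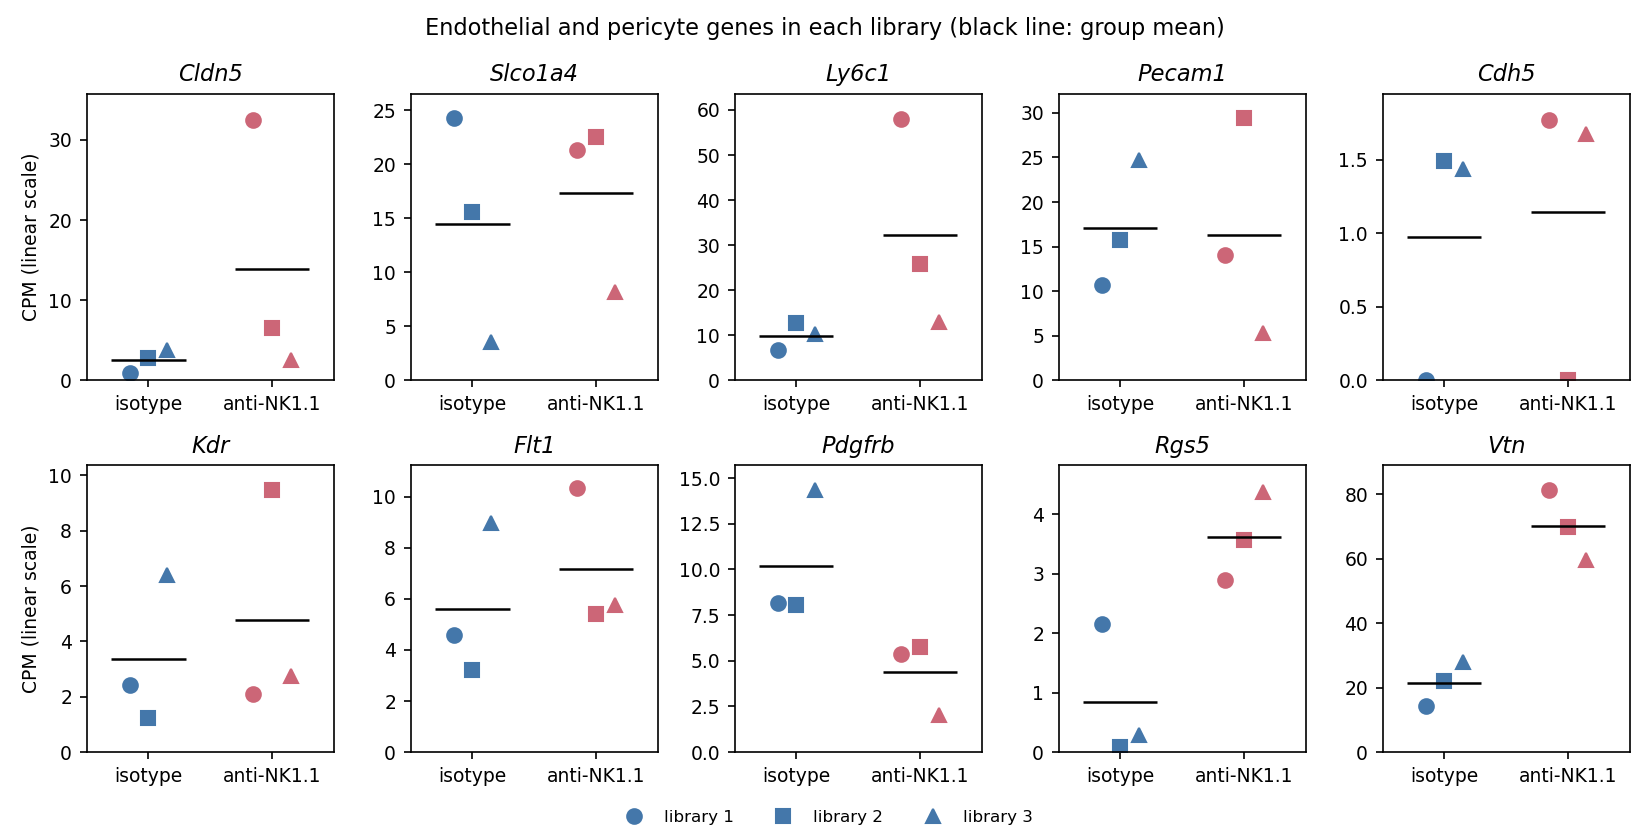
Level of each gene in CPM (vertical axes, linear scale, each gene with its own range) in the 3 isotype libraries (blue) and the 3 anti-NK1.1 libraries (red). Symbols are library numbers and black lines are group means. Vtn, Rgs5, Ly6c1 and Pdgfrb show groups that do not overlap, and Cldn5 shows 1 high library, anti-NK1.1 1 at 32.5 CPM.

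Per kilobase of transcript, Vtn (26.3 CPM per kb, averaged over the 6 libraries) and Ly6c1 (25.0) stood at the 82.0 and 81.2 percentiles of all tested genes. Cldn5 (5.77), Pecam1 (4.84) and Slco1a4 (4.16) lay near the middle, at the percentiles 55.8, 52.2 and 49.4. Pdgfrb (1.34), Flt1 (0.926), Kdr (0.686), Rgs5 (0.544) and Cdh5 (0.266) were lower, the last at the 6.49 percentile. Vtn and Ly6c1 differed by less than the spread of either gene between libraries, and so did Cldn5, Pecam1 and Slco1a4.

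Among the genes of the junctions, Cldn5 encodes claudin-5, the main tight junction protein of the brain endothelium (chromosome 16, 18776847 to 18778262, GRCm38). It had 0.921, 2.73 and 3.81 CPM for isotype 1, 2 and 3, and 32.5, 6.57 and 2.51 CPM for anti-NK1.1 1, 2 and 3. Anti-NK1.1 1 and 2 were above all isotype libraries, but anti-NK1.1 3 lay among them. Its log2 change was 2.48 ± 0.95 (SE, edgeR adjusted p = 0.727). Without anti-NK1.1 1 the log2 change was 0.87, and after the length and GC correction it was 1.77.

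Cdh5 encodes VE-cadherin, the adherens junction protein of endothelium (chromosome 8, 104101625 to 104144511). It had counts of 0, 48 and 55 for isotype and of 47, 0 and 42 for anti-NK1.1, so 1 library of each group had none. The floor of 3 counts in those libraries is 0.0837 CPM for isotype 1 and 0.0876 CPM for anti-NK1.1 2. The other 4 libraries lay between 1.44 and 1.77 CPM, and the log2 change of 0.23 ± 1.90 (SE, edgeR adjusted p = 0.981) was far smaller than its error. With the length and GC correction it was 0.57.

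Pecam1 encodes CD31, an adhesion molecule of endothelial junctions that platelets and some leukocytes also carry (chromosome 11, 106654217 to 106750628). Its level was 10.7, 15.8 and 24.7 CPM for isotype and 14.1, 29.4 and 5.26 CPM for anti-NK1.1. The groups overlapped widely, and both the highest and the lowest value were anti-NK1.1 libraries (log2 change -0.07 ± 0.60, SE; edgeR adjusted p = 0.983). With the length and GC correction the log2 change was -0.04.

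Slco1a4, an organic anion transporter of the capillary endothelium (chromosome 6, 141805440 to 141856199), had 24.3, 15.6 and 3.53 CPM for isotype and 21.3, 22.6 and 8.21 CPM for anti-NK1.1. Library 3 was the lowest of each group, and the groups overlapped (log2 change 0.26 ± 0.66, SE; edgeR adjusted p = 0.931). With the length and GC correction the log2 change was 0.69.

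Ly6c1 encodes a small lipid-anchored surface protein of the Ly6 family that brain endothelium carries (chromosome 15, 75044018 to 75048830). It had 6.75, 12.8 and 10.3 CPM for isotype and 58.1, 25.8 and 13 CPM for anti-NK1.1. All anti-NK1.1 libraries were above all isotype libraries, but anti-NK1.1 3 was barely above isotype 2, and after the length and GC correction the groups overlapped. The log2 change was 1.70 ± 0.55 (SE, edgeR adjusted p = 0.727), 0.96 without anti-NK1.1 1 and 1.52 with the length and GC correction.

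Because the 2 Ly6c genes share 164 stretches of 75 bases, outside the most different stretch shown above, Ly6c2 was read beside Ly6c1. Ly6c2 had 740, 620 and 569 CPM for isotype and 181, 226 and 838 CPM for anti-NK1.1 (log2 change -0.63 ± 0.51, SE; edgeR adjusted p = 0.782). Ly6c1 was highest in the library where Ly6c2 was lowest, anti-NK1.1 1, which also held the most Cldn5. The part of shared reads in the level of Ly6c1 was not tested.

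**Figure D2:**
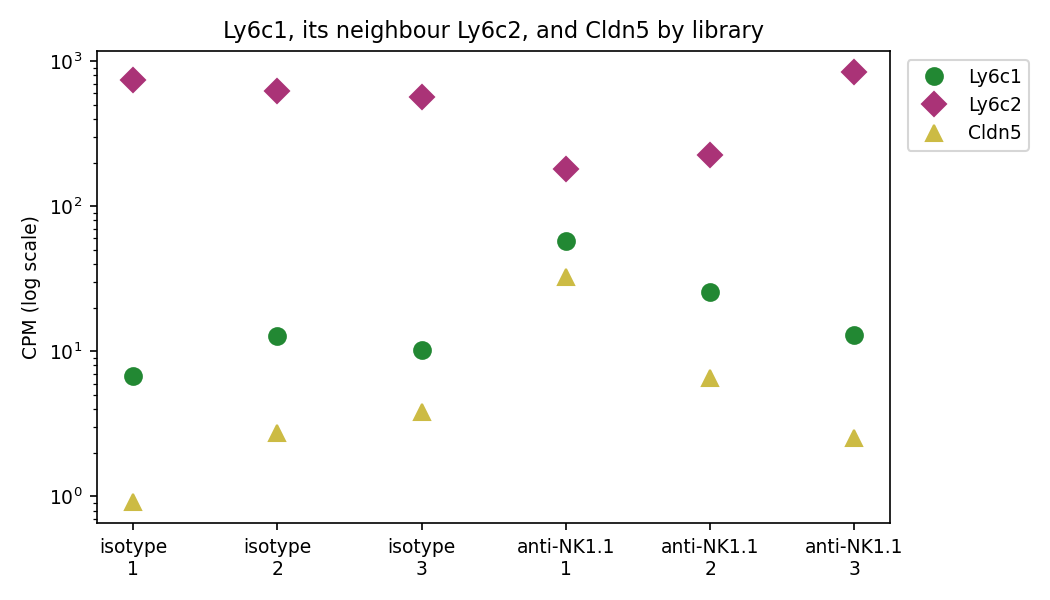
Level of Ly6c1, Ly6c2 and Cldn5 in CPM (vertical axis, log scale) in each of the 6 libraries (horizontal axis). Ly6c1 and Cldn5 are both highest in anti-NK1.1 1 (58.1 and 32.5 CPM), where Ly6c2 is at its lowest (181 CPM).

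The VEGF receptors were low and did not separate the groups. Flt1, which encodes VEGF receptor 1, a high-affinity receptor that limits VEGF signalling (chromosome 5, 147561604 to 147726011), had 4.58, 3.22 and 8.99 CPM for isotype and 10.3, 5.4 and 5.78 CPM for anti-NK1.1. Its groups overlapped, with a log2 change of 0.36 ± 0.62 (SE, edgeR adjusted p = 0.896). Kdr, which encodes the main signalling receptor, VEGF receptor 2 (chromosome 5, 75932827 to 75978458), had 2.43, 1.24 and 6.40 CPM for isotype and 2.11, 9.46 and 2.75 CPM for anti-NK1.1. For Kdr, isotype 3 and anti-NK1.1 2 were the highest, which are the libraries where long transcripts were high, and the log2 change was 0.51 ± 0.90 (SE, edgeR adjusted p = 0.897). The transcripts of Kdr and Flt1 are long, at 5924 and 6895 bases, against 844 for Ly6c1, 1416 for Cldn5 and 1744 for Vtn. With the length and GC correction the log2 changes were 0.53 for Kdr and 0.48 for Flt1.

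The 3 pericyte genes each had groups that did not overlap, 2 of them higher, where 7.73% of all tested genes were, and 1 lower, where 7.59% were. Vtn encodes vitronectin, a matrix and plasma protein that binds integrins and that pericytes make in the brain (chromosome 11, 78499091 to 78502324). It had counts of 514, 715 and 1065 for isotype 1, 2 and 3, and of 2165, 2388 and 1494 for anti-NK1.1 1, 2 and 3, which are 14.3, 22.2 and 27.8 CPM against 81.5, 69.7 and 59.5 CPM. Even the lowest anti-NK1.1 library was above the highest isotype library. The means were 21.4 ± 6.77 and 70.2 ± 11 CPM (SD, n = 3 each), a ratio of 3.28, and the 3 anti-NK1.1 libraries stood at 3.80, 3.25 and 2.78 times the isotype mean.

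The log2 change of Vtn was 1.71 ± 0.32 (SE), with an edgeR p of 0.000384 and an adjusted p of 0.464. It was the only one of the 10 genes that DESeq2's Wald test called (adjusted p = 0.000534), where 0.572% of all tested genes were called. Over all alternative settings its log2 change stayed between 1.40 (length and GC correction) and 1.94, while its adjusted p ranged from 0.000534 to 0.999. With 3 libraries per group, the smallest p that an exact two-sided permutation test can give is 0.1, which is the p of every gene whose groups do not overlap, Vtn, Ly6c1, Rgs5 and Pdgfrb included.

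Rgs5 encodes a regulator of G protein signalling that marks pericytes (chromosome 1, 169655501 to 169695813). It had counts of 77, 3 and 11 for isotype and of 77, 122 and 110 for anti-NK1.1, which are 2.15, 0.0930 and 0.287 CPM against 2.90, 3.56 and 4.38 CPM. Isotype 2 was at the floor of 3 counts, and isotype 1 came close to the anti-NK1.1 libraries. The log2 change was 2.09 ± 1.23 (SE, edgeR adjusted p = 0.743), 4.22 without isotype 1 and 2.55 with the length and GC correction.

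Pdgfrb encodes the PDGF receptor β, which holds pericytes on the vessel (chromosome 18, 61045150 to 61085061). It went the other way, with 8.17, 8.06 and 14.3 CPM for isotype and 5.34, 5.75 and 2.03 CPM for anti-NK1.1. All isotype libraries were above all anti-NK1.1 libraries, with isotype 3 the highest and anti-NK1.1 3 the lowest. The log2 change was -1.22 ± 0.60 (SE, edgeR adjusted p = 0.743), -0.89 without isotype 3 and -0.88 without anti-NK1.1 3. With the length and GC correction it was -1.32.

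Taking all 10 genes, 8 had a positive and 2 a negative log2 change, with a median of 0.43, against 0.0149 over all tested genes. At an unadjusted edgeR p under 0.05, 3 of the 10 were higher (Cldn5, Ly6c1 and Vtn), where 2.74% of tested genes were, and 0 were lower, where 3.8% were. Groups that did not overlap were seen for 3 genes on the higher side, against 7.73% of tested genes, and for 1 gene on the lower side, against 7.59%. The 7 endothelial genes had a median log2 change of 0.36 and the 3 pericyte genes of 1.71. Since genes of 1 cell type share the cells and libraries they come from, these counts are not 10 separate observations.

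**Figure D3:**
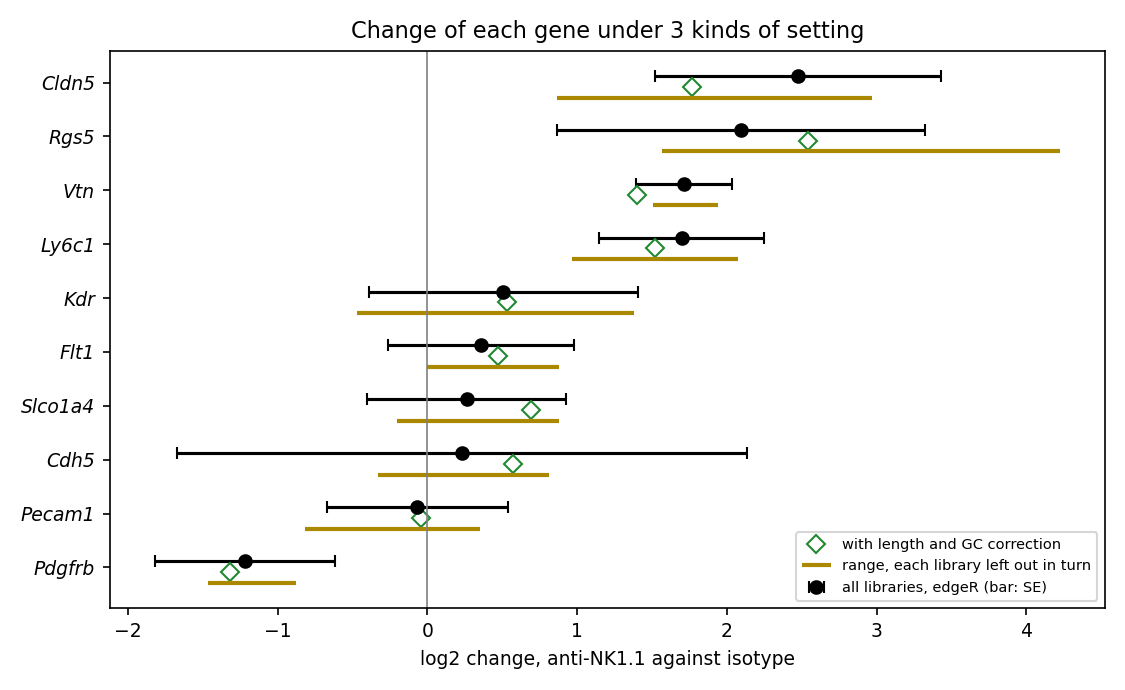
Log2 change, anti-NK1.1 against isotype, of each gene (horizontal axis): black points with bars are the edgeR estimate and its SE, green diamonds the estimate after length and GC correction, and ochre lines the range when each library is left out in turn. Cldn5, Rgs5, Vtn and Ly6c1 lie above 0 in all of these and Pdgfrb below 0, while Kdr, Flt1, Slco1a4, Cdh5 and Pecam1 cross 0.

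The genes did not move as 1 block across libraries. Anti-NK1.1 1 was the highest library for 5 of them (Cldn5, Ly6c1, Vtn, Flt1 and Cdh5), anti-NK1.1 2 for Pecam1 and Kdr, anti-NK1.1 3 for Rgs5, isotype 1 for Slco1a4 and isotype 3 for Pdgfrb. The endothelial genes summed to 49.6, 52.9 and 59.1 CPM for isotype and 140.2, 99.3 and 39.1 CPM for anti-NK1.1, so anti-NK1.1 3 was the lowest of all 6. The pericyte genes summed to 24.7, 30.3 and 42.5 CPM for isotype and 89.7, 79.1 and 66.0 CPM for anti-NK1.1, most of it Vtn. By Pearson's r over the 6 libraries with the mean log2 CPM of the 10 genes, the most alike tested genes were Usp29 (r = 0.999), Dcaf10 (0.998), Bcl11b (0.995), Apba2 (0.994) and Sall2 (0.986). These correlations describe 6 libraries that differ in depth and composition, and they are the highest among the tested genes other than predicted loci. In the isotype libraries Usp29, Bcl11b and Apba2 were at or below 1.83 CPM, and Dcaf10 and Sall2 at or above 7.11 CPM.

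The wider vessel wall was read from 12 lists of 112 genes, of which 102 were tested. Of these, 59 had a positive and 43 a negative log2 change, with a median of 0.13. None passed an adjusted p of 0.05 in edgeR, the smallest adjusted p being 0.714, and 6 were higher and 0 lower at an unadjusted p under 0.05, where 2.74% and 3.8% of all tested genes were. The groups did not overlap for 8 of the 102 on the higher side, near the 7.73% of all tested genes, and for 2 on the lower side, against 7.59%. Levels within the lists differed widely. In isotype, Bsg had a mean of 1042 CPM and Itgb5 of 857 CPM, against 21.4 CPM for Vtn, the highest of the 10 genes. How much of the RNA of the list genes came from vessel cells was not tested, so these counts describe the lists.

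Other endothelial genes were mixed, with 12 of 18 tested genes higher and a median change of 0.26 (log2). The largest difference among those named was in Ptprb, an endothelial receptor phosphatase that acts on VE-cadherin and TIE2, with 0, 0.341 and 0.183 CPM for isotype and 2.03, 3.88 and 1.08 CPM for anti-NK1.1 (log2 change 3.71 ± 1.54, SE; edgeR adjusted p = 0.743). Adgrl4, an adhesion receptor of endothelium, was high in anti-NK1.1 1 and 2 (7.90 and 4.76 CPM), while anti-NK1.1 3 at 0.319 CPM was below all isotype libraries (0.418 to 1.09 CPM). Going the other way, Tie1, a receptor that partners TIE2, had 9.21, 9.36 and 7.11 CPM for isotype and 0, 5.08 and 4.66 CPM for anti-NK1.1 (log2 change -1.40 ± 1.22, SE; edgeR adjusted p = 0.798). Ets1, a transcription factor that lymphocytes also express, had a log2 change of -0.64 ± 0.35 (SE). Tek, which encodes TIE2 itself, stayed at or below 1.17 CPM and was not tested.

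Barrier and transport genes held 4 of the 6 genes at an unadjusted p under 0.05, namely Mfsd2a, Ly6a, Itm2a and Bsg. These were 4 of 20, where 2.74% of all tested genes were higher at that p. Of the 20, 14 were higher with a median of 0.17. Bsg was far more abundant than the other 3, at the 99.6 percentile of tested genes per kilobase. It had 1191, 1293 and 642 CPM for isotype and 2011, 1492 and 1401 CPM for anti-NK1.1. How much of the Bsg RNA came from endothelium was not tested. Mfsd2a, the lysolipid transporter that keeps endothelial transcytosis low, had 0, 0.155 and 0.235 CPM for isotype and 9.93, 3.24 and 0.438 CPM for anti-NK1.1 (log2 change 5.08 ± 1.62, SE; edgeR adjusted p = 0.727). As with Cldn5, it was highest in anti-NK1.1 1 and, within that group, lowest in anti-NK1.1 3. Ly6a, which encodes the endothelial and stem cell surface protein Sca-1, had 18.2, 21.1 and 32.6 CPM for isotype and 56.5, 39.9 and 45.9 CPM for anti-NK1.1 (log2 change 0.99 ± 0.33, SE; edgeR adjusted p = 0.727).

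Itm2a, a membrane protein of endothelium and T cells, had 22.7, 8.50 and 5.12 CPM against 28.6 to 44.7 CPM. The groups did not overlap for 4 of the 20 on the higher side, among them Mfsd2a, Ly6a and Itm2a, where 7.73% of all tested genes did not. They did not overlap for 1 on the lower side, where 7.59% did not. That gene was Tfrc, which encodes the transferrin receptor, with 16.8, 10.5 and 11.2 CPM for isotype and 9.86, 8.91 and 5.46 CPM for anti-NK1.1 (log2 change -0.67 ± 0.47, SE). The efflux pump gene Abcb1a had 0.167, 0.0620 and 0.993 CPM for isotype and 4.89, 4.64 and 0.558 CPM for anti-NK1.1, with overlap in library 3. The glucose transporter gene Slc2a1, which other brain cells also express, was at 77.7 to 130 CPM for isotype and 99.99 to 157 CPM for anti-NK1.1 (log2 change 0.21 ± 0.28, SE).

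The ligands of the VEGF and PDGF receptors were not separated by the test. Vegfa, the main ligand of KDR and FLT1, overlapped between groups, with 5.41 to 17.8 CPM for isotype and 8.18 to 20.4 CPM for anti-NK1.1. Vegfb, a ligand of FLT1, had 27.6, 37.9 and 27.7 CPM for isotype and 56.7, 41.8 and 42.4 CPM for anti-NK1.1, without overlap (log2 change 0.60 ± 0.29, SE; edgeR adjusted p = 0.743). The co-receptor genes Nrp1 and Nrp2 had log2 changes of -0.74 ± 0.52 and -0.70 ± 0.62 (SE). Pdgfb, the ligand of the receptor encoded by Pdgfrb, had 45.4, 59.8 and 68.0 CPM for isotype and 119, 51.6 and 75.0 CPM for anti-NK1.1 (log2 change 0.50 ± 0.33, SE; edgeR adjusted p = 0.751). Pdgfa had a log2 change of 0.47 ± 0.38 and Pdgfd of -0.98 ± 1.02 (SE).

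In the angiopoietin and Wnt pathways that stabilise the barrier, values were low. Of the angiopoietin list, only Angpt2 (log2 change 0.70 ± 1.48, SE) and Tie1 were tested. Among 9 tested genes of Wnt signalling, 6 were higher and 3 lower with a median of 0.18. Apcdd1, a Wnt target of barrier endothelium, had a log2 change of 2.69 ± 1.80, the transcription factor gene Lef1 of 1.03 ± 0.75 and the receptor gene Fzd4 of -0.84 ± 0.59 (SE).

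Other pericyte genes had the highest median of the 12 lists, 1.08, with 7 of 11 tested genes higher, but none separated the groups. Kcnj8, a potassium channel gene that marks pericytes, had 3.29, 0 and 0 CPM for isotype and 2.71, 4.12 and 10.4 CPM for anti-NK1.1, and like Rgs5 it had its highest isotype value in isotype 1 (log2 change 2.38 ± 1.79, SE; edgeR adjusted p = 0.777). Notch3 had a log2 change of 1.76 ± 1.13 and Heyl, a target of Notch signalling in mural cells, of 3.37 ± 2.2 (SE). Smooth muscle genes had negative log2 changes for 6 of 6 genes, with a median of -0.75 and none was called. Acta2, smooth muscle actin, had 82.3, 78.5 and 61.8 CPM for isotype and 73.6, 54.1 and 20.6 CPM for anti-NK1.1 (log2 change -0.59 ± 0.41, SE), and Tagln and Myl9, of the same contractile apparatus, had -0.89 ± 0.52 and -0.74 ± 0.47 (SE). Anti-NK1.1 3 was the lowest library for these 3 genes, as it was for Pdgfrb.

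Genes of vascular fibroblasts had negative log2 changes for 5 of 7 tested genes, with a median of -0.81. Col3a1, a fibrillar collagen, had -2.30 ± 1.09, whereas Pdgfra had 0.84 ± 0.84 and the transporter gene Slc6a13 had 0.54 ± 0.54 (SE). Among basement membrane genes, 4 of 8 were higher. Nid1, which encodes the laminin-binding protein nidogen-1, had counts of 24, 68 and 49 for anti-NK1.1 and none in any isotype library (edgeR adjusted p = 0.714). The collagen IV gene Col4a2 and the laminin gene Lama5 had log2 changes of 1.67 ± 1.5 and 1.82 ± 1.19 (SE). Col4a1 and Nid2, the partners of Col4a2 and Nid1 in their families, had -0.44 ± 0.94 and -0.13 ± 0.72 (SE).

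Genes by which endothelium binds leukocytes were higher for 5 of 7, with a median of 0.12. Ackr1, a chemokine receptor of venules, had a log2 change of 2.10 ± 1.24, Madcam1 of 2.19 ± 1.94 and Sele of 0.70 ± 1.88 (SE), all at low levels. The more abundant Icam1 had -0.01 ± 0.25 and Vcam1 0.12 ± 0.43, and Selp had -0.35 ± 1.51 (SE). Integrin genes whose products bind vitronectin were read beside Vtn, and 4 of 5 were lower with a median of -0.60. Itgav, the αv chain, had 34.3, 34.5 and 81.5 CPM for isotype and 18.2, 58.0 and 17.5 CPM for anti-NK1.1 (log2 change -0.68 ± 0.54, SE; edgeR adjusted p = 0.781). The β chain genes Itgb1 and Itgb3 had log2 changes of -0.60 ± 0.39 and -0.63 ± 0.41 (SE), while Itgb5, the most abundant of the 5, had 0.24 ± 0.26 (SE).

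**Figure D4:**
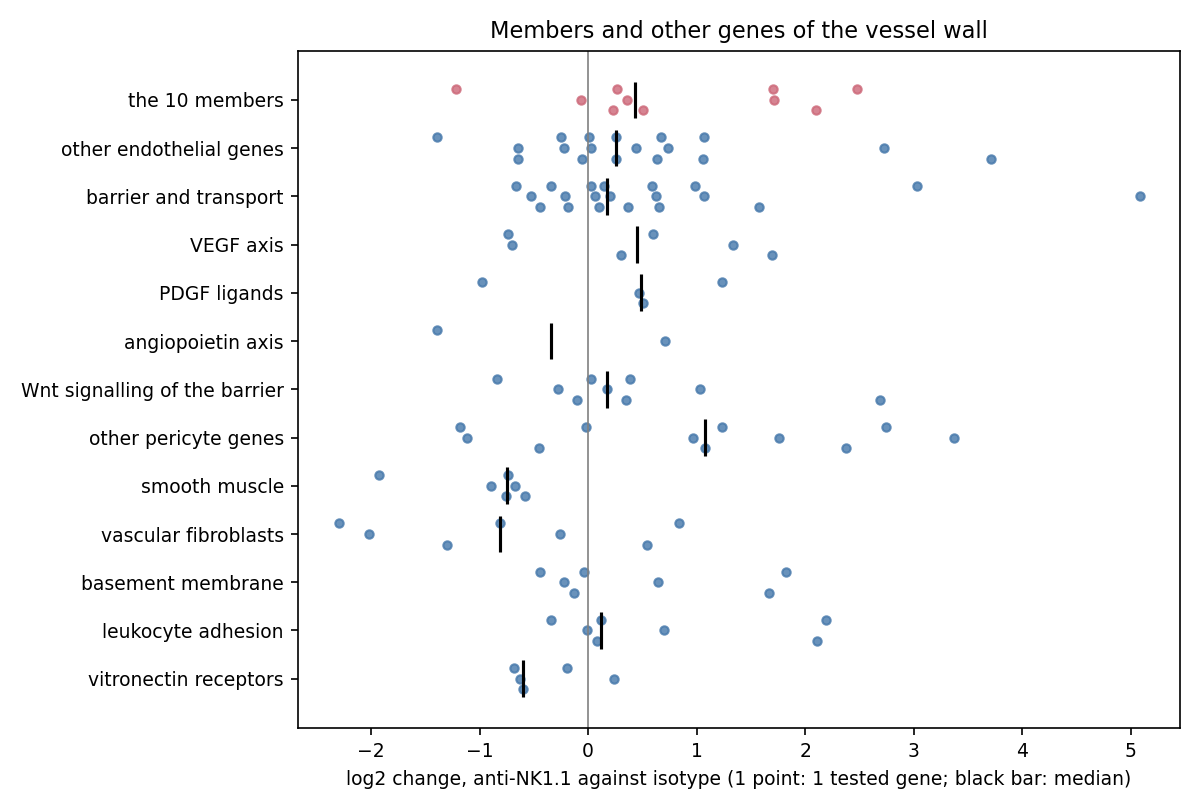
Log2 change, anti-NK1.1 against isotype (horizontal axis), of each tested gene of the 10 followed here (red) and of the 12 vessel lists (blue), 1 row per list, with black bars for the medians. Nid1 is not drawn because its isotype libraries had no counts, and the row of the basement membrane has no bar for that reason. Medians lie between -0.81 in vascular fibroblasts and 1.08 in other pericyte genes.

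Markers of other cell types were read in the same libraries. Neuronal genes were higher for 8 of 8, at a summed 40.1 to 142 CPM for isotype and 189.9 to 571 CPM for anti-NK1.1, with anti-NK1.1 1 the highest, as for Cldn5 and Ly6c1. Oligodendrocyte genes were higher for 7 of 7 tested, at 292 to 399.6 CPM and 752 to 878 CPM. Astrocyte genes were higher for 5 of 8, and their sums overlapped between groups, at 135 to 199 CPM and 155 to 257 CPM. Of the platelet genes, 4 of 8 were tested and 2 of these were higher. The list summed to 77.0 to 86.7 CPM and 113 to 152 CPM, of which Pf4, also a gene of border macrophages, and Gp9 made most, and Gp6 was at 0 in every library. Monocyte genes were lower for 6 of 8 and neutrophil genes for 8 of 8, with monocyte sums of 4352 to 4931 CPM and 1421 to 5620 CPM. No gene of these lists passed edgeR's adjusted p of 0.05. The part of other cell types, and of the difference in transcript length between libraries, in the values of the vessel genes was not tested beyond the length and GC correction given above.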

How the data were processed

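RNA-seq of sorted microglia was analysed in 6 libraries, 3 per group. Per the labels' protocols, Trizol-LS RNA was turned into cDNA by SMART-seq v4 and into Nextera XT libraries, read as single ends of 75 bp on a NextSeq, without molecular identifiers or strand marks. The submitters' processing notes name STAR 2.5.3a, DESeq2 1.1, Cufflinks 2.0, bcl2fastq 2.20.0.422 and FastQC 1.0.0, and build mm10. The counting program and annotation are not stated there. Although the deposited table is titled as normalized, the authors' values are whole-number read counts per gene with unequal totals, so they were tested as counts. Left out were 26 rows with a date in place of the symbol and 2 total rows. Reads in no feature made 53.3% to 57.4% of each library and ambiguous reads 0.293% to 0.366%.

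Genes were filtered with filterByExpr, scaled with TMM and tested with edgeR 4.0.16 (quasi-likelihood, group as the only term, two-sided) in R 4.3.3, at an adjusted p of 0.05. The common biological coefficient of variation was 0.640. Tested on simulated counts of 14108 genes, this recovered 5.47%, 46.8% and 74.7% of genes changed by 1, 2 and 4 on the log2 scale. Alternatives were other scalings and filters, each library left out, a replicate block, a length and GC correction (mgcv 1.9.3, 99.3% of tested genes with a value), DESeq2 1.42.0 and limma 3.58.1. Length, GC and coordinates came from GENCODE basic annotation of GRCm38 (mm10), in which no exon of the 10 genes overlaps another gene. Floors of 3 counts cover counting error only.

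The 10 genes and all lists were chosen with earlier results of these data known. Named beside the 10 were up to 3 genes of smallest p per vessel list, and Ly6c2, Ly6a, Vegfa, Pdgfb, Slc2a1, Mfsd2a, Abcb1a, Tek, Tie1, Kcnj8, Acta2 and Itgav whatever their values. P2ry12, Tmem119, Bsg, Tfrc, Icam1, Vcam1, Selp, Itgb5, Col4a1, Nid2, Pf4, Gp9 and Gp6 were named after their values were seen. The 5 most alike genes exclude predicted loci. Some items of the lists are not reported here.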

Additional observations from a re-analysis of the deposited data

How the results depend on the processing

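Of 156 values of single genes under the alternatives, 143 kept their direction and side of the threshold, 1 passed it (Vtn with DESeq2, adjusted p = 0.000534) and 12 changed sign. Cldn5, Ly6c1, Vtn, Rgs5 and Pdgfrb kept their direction in every alternative run. Leaving out each library in turn, the log2 change ranged from -0.82 to 0.35 for Pecam1, -0.0021 to 0.88 for Flt1, -0.33 to 0.82 for Cdh5, -0.47 to 1.38 for Kdr and -0.20 to 0.88 for Slco1a4. Leaving out anti-NK1.1 1 and 3 together, chosen after seeing the data, gave 0.79 for Pecam1 and -0.048 for Flt1, a median of the 10 genes of 1.38 and 7 genes without overlap against a single library. Cdh5 had no value there, since the remaining library was at 0, and Cdh5 was -0.058 with limma voom. The median of the 10 genes was 0.48 to 1.13 with each library left out, the highest without isotype 3. DESeq2 called 83 genes, 1 of them Vtn, limma voom 4, and edgeR 0 to 129 with each library left out, all 129 without anti-NK1.1 2, of which none was among the 10. With the replicate number as a block, edgeR's adjusted p was 0.717 for Vtn (log2 change 1.75), the log2 change of Cldn5 was 1.74 and that of Rgs5 3.25, and no call changed. Same-numbered libraries correlated at 0.0525, 0.0301 and -0.0038 across genes, as deviations from their group means. With 3 libraries per group that differ in other ways, these values cannot decide whether the numbers pair the samples. The labels do not say. At a mean CPM of at least 5, Cdh5, Kdr and Rgs5 were not tested. Cdh5 and Rgs5 had libraries at 0 or 3 counts, whose gene totals of 31.4 to 36.1 M were not the lowest.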
